A study of Mus musculus with 4 samples.

Results

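The genes described here are 9 genes of mitochondrial fat oxidation and of the fasting response: Acsl1, Cpt1a, Cpt2, Acadm, Hadh, Decr1, Pdk4, Ucp2 and Fgf21. They were taken as the array probes whose file description or RefSeq accession names the gene, and for Cpt1a, which has no probe under its symbol, as the probe described by the full enzyme name. All 9 have 1 probe by this rule, out of 9345 genes with a probe under a symbol, and all 9 were well above background in both channels on the 4 arrays, unsaturated and tested. The probes of Acsl1 and Hadh carry older symbols in the files, Facl2 and Hadhsc. Liver RNA came from male mice of a polygenic obese line, whose name and age the labels do not give, after 14 days on a diet that held conjugated linoleic acid (CLA) at 1%, as its trans-10, cis-12 isomer, or on a control diet with linoleic acid at 1%. It was hybridised to 4 Agilent oligonucleotide arrays in both colours, a CLA pool beside a control pool on each, all pools made from 4 or 5 mice. The CLA pool carried Cy5, the red dye, on arrays 1 and 2, and Cy3, the green one, on arrays 3 and 4. The scan of array 2 was processed on another day than the others, per the file headers. Whether any arrays had a pool in common is not in the labels, so p-values measure the spread between arrays, which may be technical, and the pools hide the spread between mice.

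Long-chain fatty acids enter mitochondrial oxidation after an acyl-CoA synthetase has activated them and the carnitine shuttle has carried them through the mitochondrial membranes. Acyl-CoA dehydrogenases, hydratases, hydroxyacyl-CoA dehydrogenases and thiolases then shorten the chain, and auxiliary enzymes handle its double bonds. In liver the pathway is known to rise in fasting, when the fatty acid receptor PPARA switches on many of its genes together with Pdk4, which spares pyruvate, and Fgf21, a hormone the liver secretes. Conjugated linoleic acid isomers are known as ligands of PPAR receptors.

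Values are log2 CLA over control, so that a positive value means a brighter signal with CLA. They are called as measured when they hold both the diet and the dye effect of a probe. The diet effect is the coefficient of limma's moderated test with a term for the dye, given with its SE over 4 arrays, and for these genes it equals the mean of the 4 measured values. A probe was called when its adjusted p was under 0.05 after Benjamini-Hochberg adjustment over all 20214 probes tested.

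The dye separated the arrays more than the diet did. Over all tested probes CLA over control correlated at 0.556 between arrays 1 and 2 and at 0.811 between arrays 3 and 4, but between -0.72 and -0.455 across the dye orientations. The dye effect was larger on arrays 3 and 4 (slopes of 1.183 and 1.304 on its mean) than on arrays 1 and 2 (0.779 and 0.734), and the diet effect correlated with it at -0.526 across probes. Values with the dye effect scaled to the same size on every array are therefore given beside the genes as the equalised diet effect. The scaling brings that correlation to 0.011 by construction, so it is no check of these values. Any diet effect that ran along with the dye effect across probes would be removed too. All 5 tested hepatocyte markers were above background, with diet effects between -0.11 and 0.19 and summed intensities of 51085 to 62673 with CLA and of 44732 to 67036 with the control diet. All 4 tested markers of pancreatic acinar cells stood highest on array 4, where Prss2 was at 2.60 and Cela2a at 2.41, and their summed intensity ran from 1015 to 3166 with CLA and from 911 to 987 with the control diet. No marker of another cell type listed here was called. Yet 3 of 3 tested stellate cell and fibroblast markers had diet effects above 0 (0.05 to 0.39, or 0.05 to 0.14 with the dye size equalised), as did 4 of 5 adipocyte markers (-0.10 to 0.27, with 3 of 5 above 0 when equalised), while both erythroid markers were below 0 (-0.34 and -0.24). Fabp4 and Retn had the highest diet effects of the adipocyte list (0.14 and 0.16 when equalised). They measured -0.23, -0.19, 0.56 and 0.88 and -0.30, -0.08, 0.66 and 0.80 on arrays 1 to 4. Arrays 3 and 4, where Acsl1 was high too, are those with CLA in Cy3. Adipoq and Lep were also above 0 on arrays 3 and 4 alone, while Cfd measured 0.05, -0.11, -0.16 and -0.19. Summed intensities with CLA and with the control diet were 2275 to 4839 and 1677 to 3987 for the stellate list, 1138 to 1731 and 1129 to 1488 for the adipocyte list, and 21812 to 50451 and 25269 to 63722 for the erythroid list. The part of these markers in the results below was not tested, and values without array 4 are given where that array matters. In whole liver, fewer cells of a type and less RNA per cell cannot be told apart.

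No gene of the 9 was called (0 of 9 in either direction, against 0.0346% of all tested probes called higher and 0.0346% called lower). The 3 highest diet effects of the set belonged to the acyl-CoA synthetase Acsl1 (0.48 ± 0.08), the hydroxyacyl-CoA dehydrogenase Hadh (0.31 ± 0.06) and the medium-chain dehydrogenase Acadm (0.27 ± 0.07). These 3 also had an unadjusted p under 0.05 on the higher side, where 8.76% of all probes lay, and none of the 9 did on the lower side, where 7.17% lay. The diet effect was above 0 in 7 of 9 genes, against 52.3% of all probes, and in 9 of 9 with the dye size equalised, against 50.4%. When the arrays were only centred on their median, it was above 0 in 4 of 9. The median diet effect of all probes was then -0.008, and their share above 0 is not given here. With the dye size equalised, 4 of 9 had an unadjusted p under 0.05 on the higher side (4.69% of all probes) and 0 of 9 on the lower side (4.76%), and none was called. Hadh was the single gene above 0 on all 4 arrays as measured, which 4.61% of probes were, and none was below 0 on all 4, which 4.72% were. The median diet effect of the set was 0.12, against 0.01 over all probes. The set was chosen with earlier results of these data known, so these shares describe it and are no test of it.

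**Figure D1:**
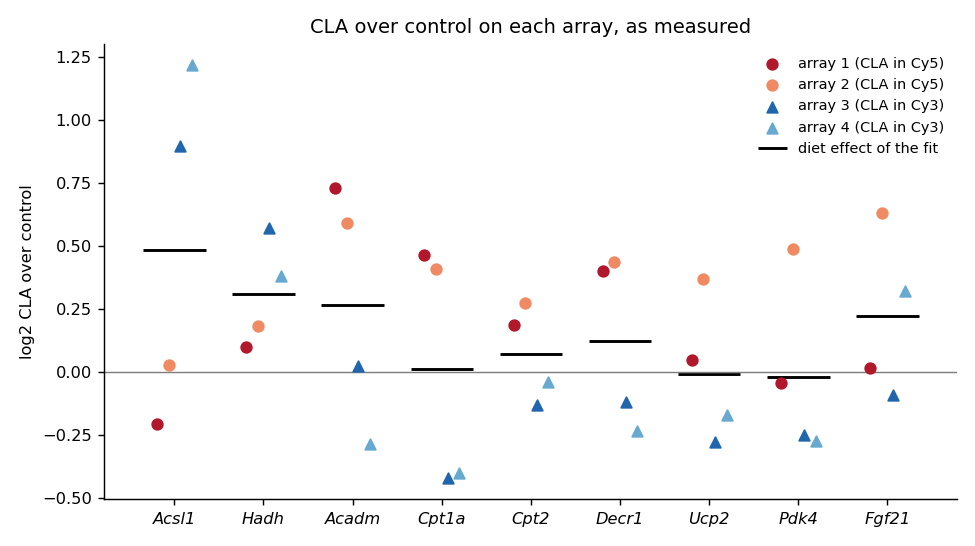
Each point is the log2 CLA over control of a gene's probe on 1 array, as measured, with circles where CLA was in Cy5 and triangles where it was in Cy3, and the bar is the diet effect of the fit. Acsl1 and Hadh are higher on arrays 3 and 4, the other genes but Fgf21 are higher on arrays 1 and 2, and Hadh is the one gene with all 4 points above 0.

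Acsl1 (chr8:46471037-46536051 in GRCm38.p6) encodes a long-chain acyl-CoA synthetase, which activates fatty acids in liver for oxidation and for lipid synthesis. Its log2 intensity with CLA was 11.17, 10.86, 11.64 and 11.83 on arrays 1 to 4, and with the control diet it was 11.38, 10.84, 10.74 and 10.61. The log2 CLA over control was therefore -0.21, 0.03, 0.90 and 1.22. Both arrays with CLA in Cy3 were high, array 2 lay near 0 and array 1 below it. The diet effect was 0.48 ± 0.08 (95% interval 0.31 to 0.66, a fold of 1.40, limma adjusted p = 0.066), higher than that of 99.6% of probes. Once the dye effect was taken out, all 4 values were above 0 (0.32 to 0.65). The fit centres the arrays of each dye orientation on the diet effect, so these 4 values agree in part by construction. The equalised diet effect was 0.34 ± 0.07 (limma adjusted p = 0.29). Without array 3 the diet effect was 0.56 with a limma adjusted p of 0.0442, within a range of 0.0442 to 0.978 over all alternatives, and without array 4 it was 0.40. Under median centring it was 0.26 ± 0.12, the lowest of the alternatives.

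Activated chains cross the mitochondrial membranes by way of 2 carnitine palmitoyltransferases, of which the outer one, Cpt1a, is the step that malonyl-CoA inhibits. Cpt1a (chr19:3322326-3385735) was printed as 10 spots of 1 probe on each array. Its mean log2 CLA over control was 0.47, 0.41, -0.42 and -0.40 on arrays 1 to 4. The sign thus followed the dye, and the spots of an array kept together: 10, 9, 0 and 0 of the 10 spots were above 0, with an SD among spots of 0.07, 0.18, 0.07 and 0.20. This left a diet effect of 0.01 ± 0.06 (95% interval -0.12 to 0.15), with mean log2 intensities of 9.83 ± 0.23 with CLA and 9.82 ± 0.36 with the control diet (SD, n = 4 each). It was 0.12 ± 0.06 with the dye size equalised and -0.19 ± 0.11 under median centring. Another probe, described as weakly similar to the liver carnitine palmitoyltransferase I, measured -0.06, -0.37, 0.11 and 0.14, the opposite sign to Cpt1a on each array. Its diet effect was -0.05 ± 0.07. That probe was dim, well above background on 2 arrays with CLA and on 3 with the control diet. Its mean log2 intensities were 6.14 and 6.19.

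**Figure D2:**
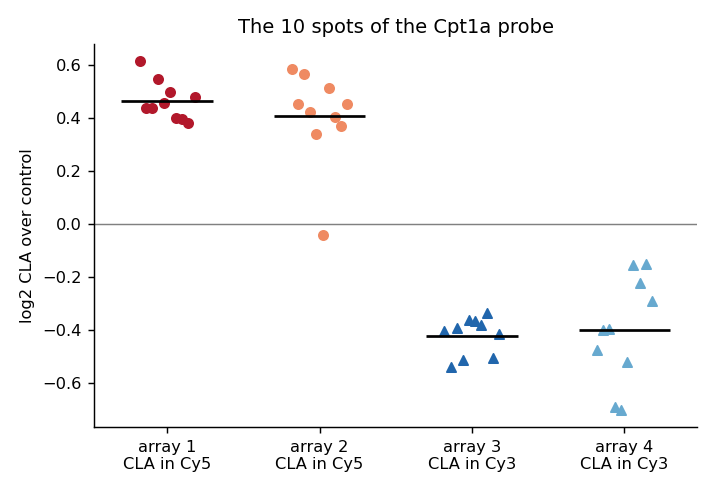
Each point is 1 of the 10 spots of the Cpt1a probe on an array, as log2 CLA over control, with circles where CLA was in Cy5 and triangles where it was in Cy3, and the bar is the mean of the spots. The means are 0.47, 0.41, -0.42 and -0.40, so the sign follows the dye that CLA carried, and the diet effect of 0.01 is the mean of values of opposite sign.

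Cpt2 (chr4:107903982-107923589), the inner-membrane enzyme that hands the chain back to CoA, measured 0.19, 0.27, -0.13 and -0.04 on arrays 1 to 4. These values too were above 0 with CLA in Cy5 and below 0 with CLA in Cy3, with a smaller gap than for Cpt1a. Their mean gave a diet effect of 0.07 ± 0.06 (95% interval -0.07 to 0.21), the equalised one 0.11 ± 0.06, and that under median centring -0.14 ± 0.11.

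The dehydrogenation steps were represented by Acadm and Hadh. Acadm (chr3:153922353-153944643), the medium-chain acyl-CoA dehydrogenase, measured 0.73, 0.59, 0.02 and -0.29 on arrays 1 to 4. It was high on both arrays with CLA in Cy5, near 0 on array 3 and below 0 on array 4, the reverse of the pattern of Acsl1. Mean log2 intensities were 11.59 ± 0.31 with CLA and 11.33 ± 0.33 with the control diet (SD, n = 4 each). The SD of either channel over arrays exceeded the difference between these means. It ignores the pairing of the channels within an array, on which the diet effect rests. The diet effect was 0.27 ± 0.07 (95% interval 0.10 to 0.43, a fold of 1.20, limma adjusted p = 0.17), and the equalised one was 0.36 ± 0.07 (limma adjusted p = 0.24). Under median centring it was 0.03 ± 0.10.

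Hadh (chr3:131233419-131272101), the mitochondrial hydroxyacyl-CoA dehydrogenase, had the smallest dye effect of the 3 highest genes. Its log2 intensity with CLA was 10.43, 9.98, 10.68 and 10.58 on arrays 1 to 4, and with the control diet it was 10.33, 9.80, 10.11 and 10.20. On each array the CLA channel was the brighter one, by 0.10, 0.18, 0.57 and 0.38. The diet effect was 0.31 ± 0.06 (95% interval 0.16 to 0.45, a fold of 1.24, limma adjusted p = 0.11) and the equalised one 0.27 ± 0.06. It was between 0.26 and 0.36 when each array was left out in turn, and 0.10 ± 0.10 under median centring.

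Decr1 (chr4:15917240-15945377), the dienoyl-CoA reductase that removes double bonds from unsaturated chains, measured 0.40, 0.44, -0.12 and -0.23. Its sign followed the dye as that of Cpt1a did. It had a diet effect of 0.12 ± 0.06 (95% interval -0.01 to 0.26), the equalised one 0.19 ± 0.06, and that under median centring -0.02 ± 0.10.

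**Figure D3:**
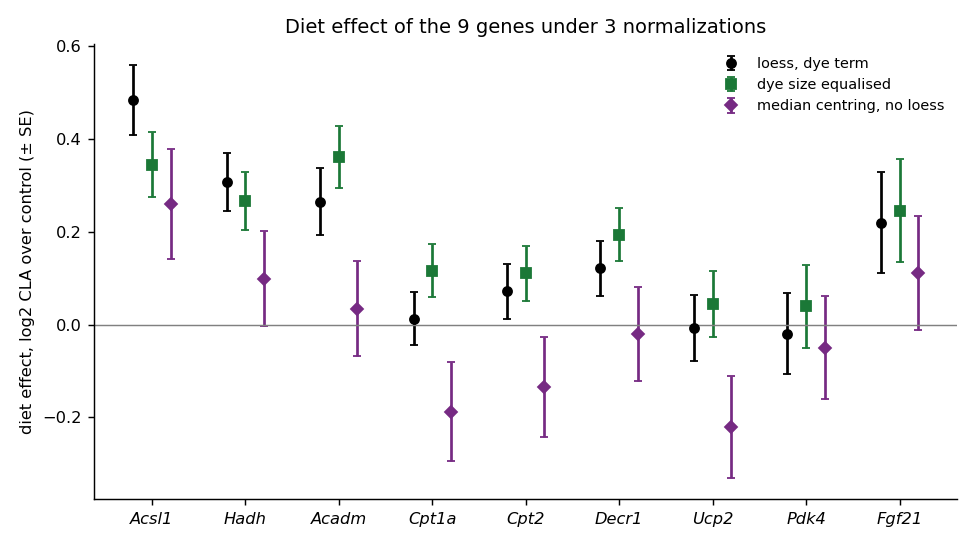
Points are the diet effect of each gene as log2 CLA over control, with bars of 1 SE over 4 arrays, from the loess-normalized fit with a dye term (circles), the same with the dye size equalised (squares) and median centring with no loess (diamonds). Acsl1, Hadh, Acadm and Fgf21 are above 0 under all 3, Cpt1a, Cpt2 and Decr1 fall below 0 under median centring, and of the 3 it is the equalised fit alone that puts Ucp2 and Pdk4 above 0.

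Pdk4, Fgf21 and Ucp2 bear on fasting and on the use of fuel by mitochondria. Pdk4 (chr6:5483351-5496278) encodes the kinase that switches off pyruvate dehydrogenase and thereby spares glucose carbon. It measured -0.04, 0.49, -0.25 and -0.27 on arrays 1 to 4, so array 2 alone was above 0. For Pdk4 the diet effect was -0.02 ± 0.09 (95% interval -0.22 to 0.18), 0.04 with the dye size equalised, 0.11 without array 1 and -0.15 without array 2. Pdk4 is also the single gene of the 9 in the authors' deposited table of 775 probes, where its ratio is 0.734 (-0.45 on the log2 scale) with a p-value of 0.00036. Of the probes in the authors' deposited table, 741 of the 765 tested here have the sign of the diet effect, so it runs as CLA over control. The deposited series matrix gives Pdk4 log2 values of -0.03, 0.74, -0.42 and -0.47, which average close to 0 like the values from the scanner signals. On the log2 scale, the ratio of the authors' deposited table lies between the matrix values of arrays 3 and 4, with CLA in Cy3. It lies below those of arrays 1 and 2. It also lies below the lower bound of the 95% interval found here, which rests on all 4 arrays. The sources used here give neither the averaging behind that ratio nor the test behind its p-value.

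Fgf21 (chr7:45613890-45615490), the fasting hormone of the liver, measured 0.02, 0.63, -0.09 and 0.32 on arrays 1 to 4. Arrays 2 and 4 were high and arrays 1 and 3 near 0, a pattern that did not follow the dye. Its log2 intensity was 7.95 ± 0.06 with CLA and 7.73 ± 0.27 with the control diet (SD, n = 4 each), and the control channel of array 2, at 7.39, was the lowest of the 8. The diet effect was 0.22 ± 0.11 (95% interval -0.03 to 0.47, limma adjusted p = 0.36), higher than that of 95.4% of probes. It rested on arrays 2 and 4, since it was 0.07 without array 2, 0.12 without array 4, 0.37 without array 1 and 0.32 without array 3. It was 0.09 without background subtraction and 0.11 under median centring. Array 2, where Pdk4 and Ucp2 were highest too, is the one whose scan was processed on another day. The part of that day was not tested.

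Ucp2 (chr7:100493337-100499629), a mitochondrial inner-membrane carrier related to the uncoupling protein of brown fat, measured 0.05, 0.37, -0.28 and -0.17 on arrays 1 to 4. Array 2 was the highest, and the arrays with CLA in Cy3 were below 0. For Ucp2 the diet effect was -0.01 ± 0.07 (95% interval -0.17 to 0.16), 0.04 with the dye size equalised, 0.07 without array 1, -0.09 without array 2 and -0.22 ± 0.11 under median centring. A second probe, whose description names uncoupling protein 2 without the symbol, measured -0.30, 0.10, 0.05 and -0.09, with a diet effect of -0.06 ± 0.08. This second probe was dim, well above background on 3 arrays with CLA and on 4 with the control diet. Its mean log2 intensities were 6.66 and 6.72. In liver Ucp2 is known to be prominent in Kupffer cells. The 6 tested macrophage and Kupffer cell markers were all above background, with diet effects between -0.13 and 0.13, 3 of them above 0, and summed intensities of 2647 to 3330 with CLA and of 2107 to 3723 with the control diet.

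The rest of the pathway was read from lists written from textbook knowledge, with earlier results of these data known. The lists hold the genes of the set that belong to them, and their counts are descriptive. Of 29 genes of mitochondrial fatty acid oxidation, 15 had a tested probe under their symbol. Their diet effect was above 0 in 13 of 15, or in 7 of 15 under median centring, with a median of 0.15, and none was called. Over all probes 52.3% were above 0 and the median was 0.01, or -0.008 under median centring. An unadjusted p under 0.05 was found for 7 on the higher side, where 8.76% of all probes lay, and for 1 on the lower side, where 7.17% lay. The counts above 0 in the shorter lists that follow are to be read against the same 52.3%. Among the 9 that are not in the set, 7 were above 0. Of these 9, 4 had an unadjusted p under 0.05 on the higher side and 1 on the lower side. The highest was Crat, the carnitine acetyltransferase, at 0.36, 0.61, 0.12 and 0.01 on arrays 1 to 4 (diet effect 0.28 ± 0.07). It was above 0 on every array, as Hadh was. The lowest was Acsbg1, an acyl-CoA synthetase best known from brain, at -0.09, -0.16, -0.11 and -0.30 (diet effect -0.17 ± 0.06). Acsbg1 was below 0 on every array.

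A further 7 probes of the pathway carry only a description in the files and were picked by it. They belong to the alpha and beta subunits of the trifunctional enzyme (0.07 ± 0.06 and 0.23 ± 0.08), the very-long-chain dehydrogenase (0.11 ± 0.06), dodecenoyl-CoA isomerase (0.34 ± 0.09), the mitochondrial 3-ketoacyl-CoA thiolase (0.07 ± 0.07) and the alpha and beta subunits of the electron transfer flavoprotein (0.16 ± 0.07 and 0.23 ± 0.07, or 0.07 and 0.08 with the dye size equalised). All 7 diet effects were above 0 and none was called. The probe of the trifunctional alpha subunit was dim, at mean log2 intensities of 6.59 with CLA and 6.52 with the control diet. The isomerase, which like Decr1 acts on unsaturated chains, measured -0.04, 0.48, 0.54 and 0.38 on arrays 1 to 4, with array 1 alone below 0.

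**Figure D4:**
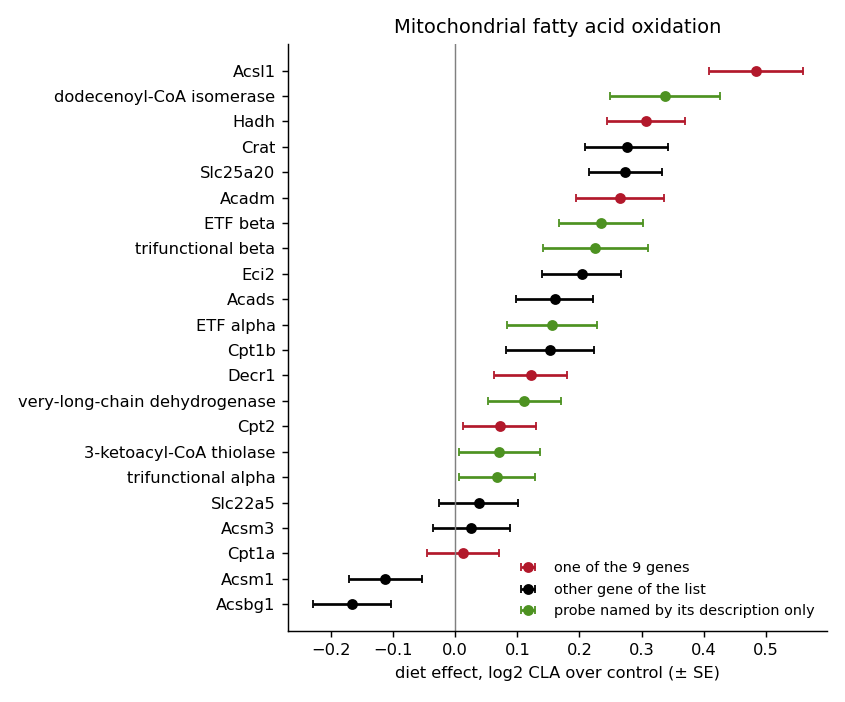
Points are diet effects as log2 CLA over control with bars of 1 SE over 4 arrays, for 15 genes of mitochondrial fatty acid oxidation and 7 probes named by their description, with the genes of the set in red. Among the 15 genes 13 are above 0, or 7 under median centring, and Acsl1 is at the top with Acsbg1 at the bottom.

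Ketone bodies are what the liver makes from the acetyl-CoA of fat oxidation. Of 5 tested genes of that list 3 were above 0 and none was called. The lowest was Slc16a1, a monocarboxylate transporter (-0.11 ± 0.09). The described probes of HMG-CoA synthase 2, the rate-setting enzyme, and of beta-hydroxybutyrate dehydrogenase stood at 0.27 ± 0.07 and 0.21 ± 0.08. The described probe of mitochondrial acetyl-CoA acetyltransferase measured 0.80, 0.75, -0.45 and -0.88 on arrays 1 to 4, so its sign followed the dye, with a diet effect of 0.06 ± 0.08, or 0.23 with the dye size equalised.

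Among 22 tested genes of the fasting and PPARA list, 14 were above 0 (52.3% of all probes were), the median was 0.03 (0.01 over all probes), and none was called. Vnn1, the pantetheinase that is a known PPARA target in liver, was the highest at 0.48, 0.32, 1.15 and 0.41 on arrays 1 to 4 (diet effect 0.59 ± 0.11, limma adjusted p = 0.091). It was above 0 on every array. G6pc, the glucose-6-phosphatase that releases glucose from the liver in fasting, was the lowest at 0.09, 0.22, -1.09 and -1.36 (diet effect -0.53 ± 0.07, limma adjusted p = 0.053). It was low on arrays 3 and 4 alone, and the equalised diet effect was -0.37.

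**Figure D5:**
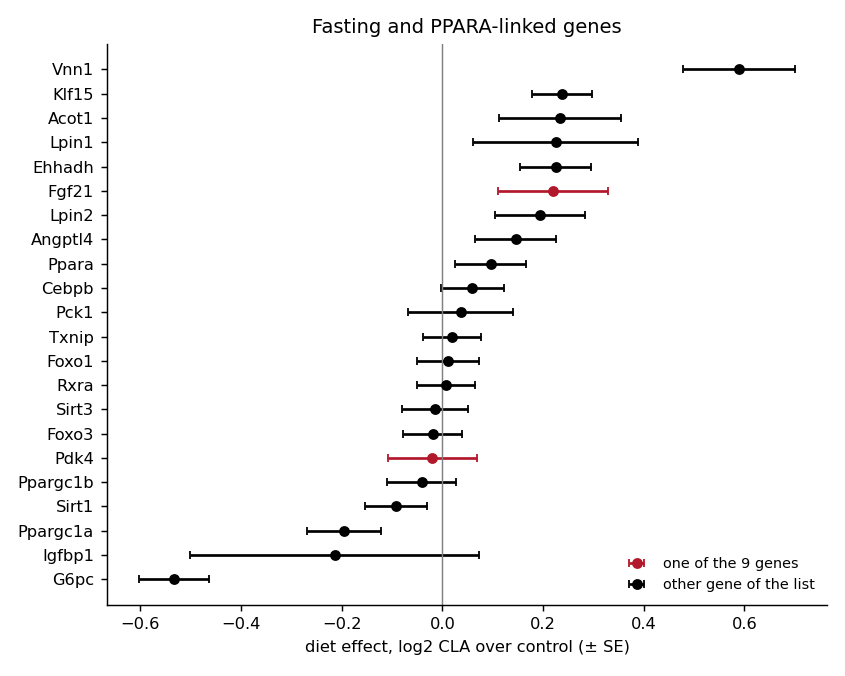
Points are diet effects as log2 CLA over control with bars of 1 SE over 4 arrays, for 22 genes of the fasting and PPARA list, with Pdk4 and Fgf21 in red. Vnn1 at 0.59 and G6pc at -0.53 lie at the ends, and Fgf21 at 0.22 lies above Pdk4 at -0.02.

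The partners of the fasting genes were measured too. Of the 6 FGF receptors and klotho co-receptors tested, not all of which serve FGF21, 2 were above 0 and none was called. Fgfr3 was the highest (0.12 ± 0.06) and Fgfr4, the main FGF receptor of hepatocytes, the lowest (-0.11 ± 0.06, or -0.07 with the dye size equalised). Of 7 genes of pyruvate dehydrogenase and its kinases, 4 were above 0 and none was called. There Pdha1, of the E1 component that the kinases phosphorylate, was the highest (0.24 ± 0.06, or 0.10 with the dye size equalised) and Dld, of the E3 component, the lowest (-0.09 ± 0.06, or -0.01 when equalised). Described probes of the same complex and its kinases stood at -0.11 ± 0.06 (dihydrolipoamide acetyltransferase), -0.07 ± 0.07 (protein X), 0.01 ± 0.08 (similar to kinase 1) and -0.03 ± 0.06 (similar to kinase 3). Of 5 uncoupling proteins and carriers, 3 were above 0 and none was called, between the dicarboxylate carrier Slc25a10 (0.17 ± 0.06) and Ucp1 (-0.04 ± 0.06). Malonyl-CoA, which inhibits Cpt1a, was represented by 1 tested gene, Prkag1 of the AMP-activated kinase (-0.0028 ± 0.06), and by described probes. That of malonyl-CoA decarboxylase, which breaks it down, stood at 0.01 ± 0.06, and the pair for acetyl-CoA carboxylase, which makes it, at 0.09 ± 0.07 and 0.03 ± 0.06.

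Among 7 tested acyl-CoA synthetases, the family of Acsl1, 4 were above 0 and none was called. Slc27a2, which takes up and activates very long chains, measured -0.23, 0.87 and 1.56 on arrays 1, 3 and 4 and was not measured on array 2, with a diet effect of 0.49 ± 0.14 over those 3 arrays, or 0.33 with the dye size equalised. Acss2, which activates acetate in the cytosol for lipid synthesis, measured 0.20, -0.47, -0.32 and -1.02, with a diet effect of -0.40 ± 0.13. The described probes of the long-chain ligases 3 and 5 stood at -0.04 ± 0.08 and 0.03 ± 0.09. That of ligase 5 was dim, at mean log2 intensities of 6.33 with CLA and 6.3 with the control diet. The genes with array values most like those of Acsl1, by Euclidean distance over the 4 measured values among 9126 named probes, were Ephx1 (0.198), Hsd17b12 (0.233), Pdgfa (0.313), Krtap5-4 (0.335) and Nedd4 (0.344). Ephx1, the microsomal epoxide hydrolase, measured -0.16, 0.22, 0.89 and 1.22, against -0.21, 0.03, 0.90 and 1.22 for Acsl1. The distance is over values that hold the dye effect too.

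The promoters of the set were searched for the sequence that PPARA dimers are known to read, because the receptor is known to act on several of these genes. RefSeq windows of 300 bases around an annotated start (GRCm38.p6) were available for 8 of the 9 genes, all but Decr1. The direct repeat AGGTCANAGGTCA, on either strand, was in 0.0396% of 32851 mouse windows and in none of the 8 genes, and its looser form AGGNCANAGGNCA was in 0.381% and again in none. The half-site AGGTCA on its own was in 16.3% of windows, and in 2 of the 8 genes, Acadm and Cpt1a. Their windows, chr3:153944594-153944893 on the minus strand and chr19:3323051-3323350 on the plus strand, are printed 5′ to 3′ with the half-site in capitals, where it reads on the opposite strand.
Acadm: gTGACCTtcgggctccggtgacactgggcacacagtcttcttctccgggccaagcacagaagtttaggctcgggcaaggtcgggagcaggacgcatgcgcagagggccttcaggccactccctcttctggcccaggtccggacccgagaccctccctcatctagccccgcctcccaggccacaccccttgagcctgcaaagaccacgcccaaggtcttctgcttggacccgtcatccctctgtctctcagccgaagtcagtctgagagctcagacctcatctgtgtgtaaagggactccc
Cpt1a: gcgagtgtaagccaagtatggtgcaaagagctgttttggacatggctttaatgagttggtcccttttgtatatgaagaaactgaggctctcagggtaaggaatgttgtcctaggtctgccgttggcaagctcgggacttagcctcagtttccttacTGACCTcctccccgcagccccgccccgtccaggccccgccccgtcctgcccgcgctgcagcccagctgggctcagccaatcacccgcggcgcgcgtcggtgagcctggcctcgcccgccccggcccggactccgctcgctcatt
The 2 genes with a half-site had diet effects of 0.27 (Acadm) and 0.01 (Cpt1a), and Acsl1 and Hadh, with none in these windows, had 0.48 and 0.31. A match is a run of letters and not a measured binding site, and its absence from these windows says nothing of sites elsewhere.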

How the data were processed

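The members and gene lists were chosen with earlier results of these data known. The deposited scanner files come from Agilent Feature Extraction A.6.1.1, per the file headers, with intensities of both dyes for 22393 spots, processed intensities and a log10 ratio made from these. The authors' deposited series matrix holds log10 ratios, and the sources used here do not say how they were made. Against the scanner's log10 ratios their slope was near 1 on both arrays with CLA in Cy5 and -1 on the others, and the medians of its columns stood at 0.00416, 0.000339, -0.00632 and -0.00676. In the authors' deposited table each probe has its p-value, its ratio and, as a score, that ratio as a fold with a sign.

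Intensities were corrected with normexp (offset 50) and loess within arrays in limma 3.58.1 (R 4.3.3), with 1075 control spots at weight 0 and then removed. Spots flagged as outliers were left out and spots of a probe averaged to 20868 probes. Tested probes were well above background in either diet on at least 2 arrays, and measured on at least 3. Probes were named through the accession (8947), the bracketed symbol (258) or an older symbol (276), and 11387 stayed unnamed. Coordinates are those of the GRCm38.p6 RefSeq gene table, not of the files. The fit had a dye intercept and the diet as +1 for CLA in Cy5 and -1 for CLA in Cy3. It was also run on simulated data, with the dye size equal over arrays and as measured. That run is not used as support here. Named besides the members were called non-members and the highest and lowest non-member of each pathway list, and the 5 genes nearest to Acsl1; 1 gene so chosen is not reported here. The small number of arrays limits the precision.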

Additional observations from a re-analysis of the deposited data

Results flagged for a closer look

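Groups of 4 values were tested for 1 value far from the others, for the 9 genes on both scales and for the medians of the gene lists. None of the genes had such a value as measured. With the dye effect removed none could have been flagged, because the fit centres the arrays of each dye orientation on the diet effect. The median of the pancreatic acinar list as measured was 1.89 on array 4, against -0.03 to 0.08 on the others. The median of the fasting and PPARA list as measured was -0.12 on array 3, against 0.11 to 0.14 on the others. Chance flags about 1 in 20 groups of independent values, which values that share a dye effect are not.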

How the results depend on the processing

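The count of 14 called probes (7 higher, 7 lower) became 0 without background subtraction, with a normexp offset of 10, with the scanner's processed signals, with the deposited series matrix, with scaling between arrays, without the dye term and with the dye size equalised. The scanner's processed signals and the deposited series matrix gave the same counts and the same diet effects of the 9 genes, so they are not separate alternatives. In the fit described above, unadjusted p-values under 0.05 stood at 1771 higher and 1450 lower. The count became 149 under median centring (31 higher, 118 lower), 31 with an intensity trend, 52 with the stricter filter, and ran from 2 (without array 2) to 72 (without array 4), with 40 without array 1 and 65 without array 3. Genes of mitochondrial fatty acid oxidation above 0 numbered 7 under median centring, against 13 of 15, and 11 to 13 with an array left out. None of the 9 genes was called under any alternative but Acsl1 without array 3. Leaving out 1 array gave 0.40 to 0.56 for Acsl1, 0.26 to 0.36 for Hadh, 0.19 to 0.34 for Acadm, -0.0021 to 0.027 for Cpt1a, 0.05 to 0.09 for Cpt2, 0.09 to 0.15 for Decr1, -0.087 to 0.071 for Ucp2, -0.15 to 0.11 for Pdk4 and 0.07 to 0.37 for Fgf21. Signs turned for Cpt1a without background subtraction (-0.017) and under median centring (-0.19), for Cpt2 (-0.14) and Decr1 (-0.020) under median centring, for Ucp2 with scaling between arrays (0.0088) and the dye size equalised (0.045), and for Pdk4 with the dye size equalised (0.039). The cause was not tested. The fit is already paired by array, since each ratio sets a CLA pool against the control pool of the same array, so no further block was added. A block for slide was not run, since each array is its own slide. An average over several probes gave no value, since each gene has 1 probe by the rule.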
